A study of Mus musculus with 6 samples.

Results

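Tumors injected with interferon-α-producing myeloid cells were compared with uninjected tumors on the opposite limb, through the β chain sequences of T cell receptors (TCR-β) in their RNA. The comparison takes 4 of the 6 libraries of the series, 2 of treated tumor and 2 of distant tumor, chosen by their titles and set side by side by the number in the title. All groups came from C57BL/6 mice that carried MO4, an ovalbumin-expressing line of B16F10 melanoma, in both hindlimbs from day 0, at 100000 cells per site. The treated tumor, on the right, had IFN-α-iPSC-pMC (myeloid cells grown from induced pluripotent stem cells) placed around it on days 5, 6 and 7 and again on days 12 and 13, with 1000000 cells given each time. The distant tumor, on the left, received none of these cells but grew in an animal that did. No tumor from an untreated animal is used here, so the comparison is between sites within treated animals. Whole tumor RNA was taken on day 14, and 2 spleen libraries are given only as a polyclonal reference.

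Each β chain is assembled in the developing T cell by joining a variable (TRBV), a diversity and a joining (TRBJ) segment. Bases added or trimmed at the joints make up much of the third complementarity-determining region (CDR3), the loop that contacts the antigen peptide. The ends of the loop come from the V and J genes, whereas its middle is mostly diversity segment and added bases. When T cells that share a receptor divide, their common sequence takes up more of the reads. In whole tissue, more cells of a clone and more receptor RNA per cell cannot be told apart.

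A clonotype is a TRBV gene, a TRBJ gene and a CDR3 amino acid sequence without a stop or frame mark. Every measure is given weighted by reads, which follows the large clones, and with each clonotype counted a single time. In the latter a small clonotype weighs as much as a large one. The 4 tumor libraries held 42320 to 83171 productive reads in 7539 to 12761 clonotypes, and the spleens 96907 to 135599 reads in 64726 to 92233. Between 13.3% and 32.6% of a tumor's clonotypes differed by 1 residue from a clonotype of the same genes and length with at least 20 times its reads, against 0.335% to 0.413% in the spleens. Results counted a single time were therefore also computed with such variants merged into the larger clonotype. Distant tumor 1 stands apart by reads, since 1 clonotype made up 18.5% of it. Several results that rest on it, but not all, are also given without it or without the largest clones. The series describes 2 mice, so tests over these libraries measure the spread between 2 libraries of each kind.

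The CDR3 sequences that the results turn on are printed here as amino acids, from the conserved cysteine to the closing phenylalanine. Each led its V-J pair in the tumors named, and together they show clones large in 1 tumor, a sequence found in tumors of both numbers beside the leader where it was not detected, and the leaders of the pair with the steepest contrast that was alike in both numbers. Other leading CDR3 are named by their genes and length only.
Distant tumor 1, TRBV12-1 and TRBJ1-2: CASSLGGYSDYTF
Treated tumor 2 and both distant tumors, TRBV16 and TRBJ2-7: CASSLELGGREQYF
Treated tumor 1, TRBV16 and TRBJ2-7: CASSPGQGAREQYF
Treated tumor 1, TRBV19 and TRBJ2-1: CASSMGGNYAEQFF
Treated tumor 1, TRBV4 and TRBJ1-2: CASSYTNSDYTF
Treated tumor 2, TRBV4 and TRBJ1-2: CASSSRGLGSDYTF

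The clearest contrast in clone sizes lay in clonotypes that each held from 0.1% to under 1% of a library, called mid-size clones below. Treated tumor 1 had 125 of them and distant tumor 1 had 64, a ratio of 1.95. Treated tumor 2 had 176 and distant tumor 2 had 90, a ratio of 1.96. Mid-size clones took 30.5% and 37.2% of the reads of the treated tumors and 16.4% and 19.9% of the reads of the distant tumors, so the groups did not overlap. In each spleen 4 clonotypes reached this size, with 0.650% and 0.670% of the reads. With 2 libraries a group, no permutation test can give a p under 0.333.

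**Figure D1:**
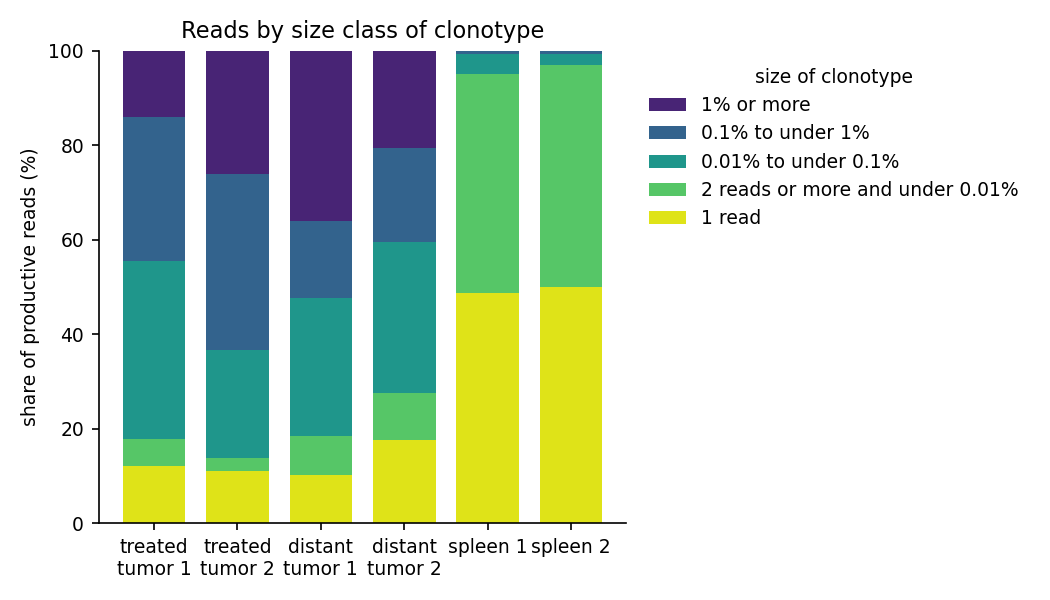
Share of productive reads (%) in 5 size classes of clonotype, stacked for the 4 tumors and 2 spleens. The class from 0.1% to under 1% takes 30.5% and 37.2% of the treated tumors and 16.4% and 19.9% of the distant tumors, while the spleens lie almost wholly in clonotypes under 0.01%.

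The mid-size counts stood at equal depth and under other class limits. At an equal 42320 reads the expected numbers were 125 and 178 in the treated tumors and 63.2 and 90 in the distant tumors. After merging variants the ratios were 1.91 in number 1 and 1.97 in number 2. With limits of 0.05% and 0.5% they were 1.75 and 1.88, and with limits of 0.2% and 2% they were 1.65 and 1.5. The ratio of number 1 was smaller once the largest clones were set aside. When the 10 most abundant clonotypes of each library were left out of the total, the counts were 151 against 120 in number 1, a ratio of 1.26. In number 2 they were 241 against 123, a ratio of 1.96.

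**Figure D2:**
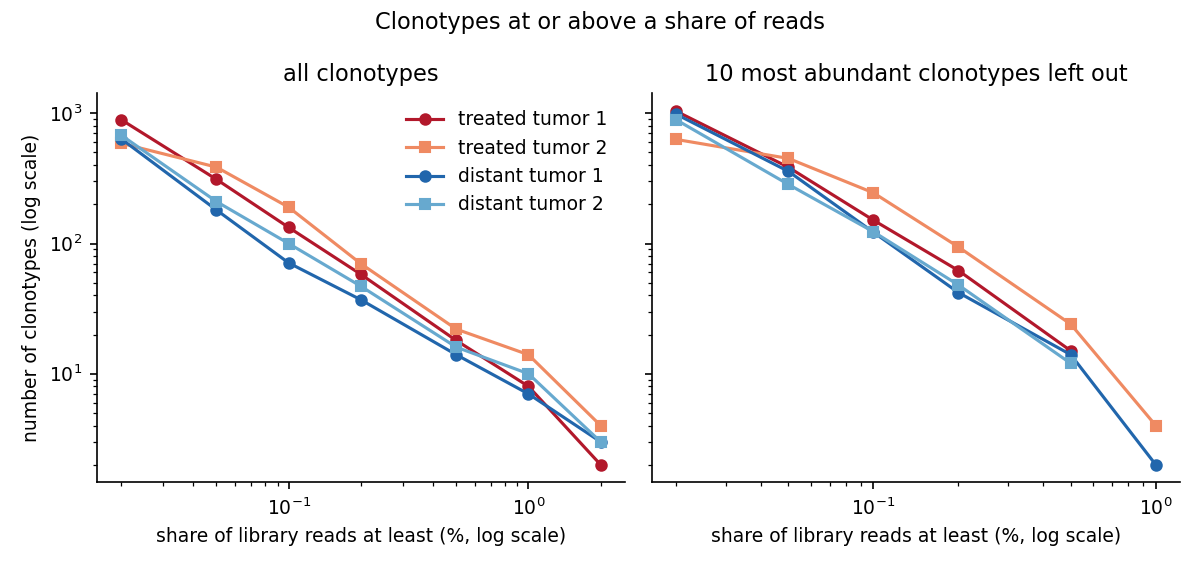
Number of clonotypes (log scale) that hold at least a given share of a library's reads (%, log scale), for each tumor, with all clonotypes on the left and without the 10 most abundant on the right. At 0.1% or more the treated tumors have 133 and 190 clonotypes and the distant tumors 71 and 100, and without the 10 most abundant they have 151 and 245 against 122 and 123; points for a count of 0 are not drawn.

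Clones of 1% or more numbered 8 in treated tumor 1, 14 in treated tumor 2, 7 in distant tumor 1 and 10 in distant tumor 2. These largest clones held 14.0% of treated tumor 1 and 35.9% of distant tumor 1. In number 2 the order was the opposite, with 26.1% for the treated tumor and 20.5% for the distant one. Reads in all clones of 0.1% or more therefore went opposite ways in the 2 numbers, at 44.4% against 52.3% in number 1 and 63.3% against 40.5% in number 2 (exact permutation test, two-sided, p = 0.667). Within these expanded reads, clones of 1% or more held 31.4% and 41.2% in the treated tumors and 68.7% and 50.8% in the distant tumors. The expanded part of the distant tumors was thus more concentrated in its largest clones, in both numbers.

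Small clones also differed in how they were spread. Clonotypes of 2 reads or more and under 0.01% of a library held 5.88% and 2.71% of the reads of the treated tumors and 8.23% and 10.0% of those of the distant tumors. Clonotypes seen in 1 read made up 78.5% and 82.6% of all clonotypes in the treated tumors and 74.5% and 72.0% in the distant tumors (exact permutation test, two-sided, p = 0.333, the smallest that 6 splits allow). The groups did not overlap. At equal depth the shares were 72.1% and 81.3% against 68.6% and 72.0%, so treated tumor 1 and distant tumor 2 were then nearly level. Variants by 1 residue made up 26.8% and 31.5% of the single-read clonotypes of the treated tumors and 22% and 14.5% of those of the distant tumors, and their part in the difference was not tested.

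The mid-size clones were not copies of a common receptor. The 125 of treated tumor 1 used 88 V-J pairs and the 176 of treated tumor 2 used 116. In the distant tumors 64 clones used 50 pairs and 90 used 64. The gene with the most of them was TRBV5 in treated tumor 1 with 18 and in distant tumor 2 with 13, and TRBV13-2 in treated tumor 2 with 19 and in distant tumor 1 with 12. Their median size was alike in the 4 tumors, from 0.161% to 0.184% of a library.

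Detection in the other tumor of the same number was read for each size class. Of the mid-size clones of treated tumor 1, 64.8% (81 of 125) were found in distant tumor 1, and 76.6% (49 of 64) the other way round. In number 2 the shares were 42.6% (75 of 176) and 44.4% (40 of 90). Of the treated tumors' mid-size clones, 25 of the 81 detected in number 1 and 20 of the 75 in number 2 were at 0.1% or more in the distant tumor as well. Of the distant tumors' mid-size clones, 25 of the 49 detected in number 1 and 21 of the 40 in number 2 were at 0.1% or more in the treated tumor. Among clonotypes of 1 read, 1.65% to 2.27% were detected in the other tumor, or 0.469% to 0.832% with 1-residue variants left out. Detection of a small clone is limited by the depth of both libraries.

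**Figure D3:**
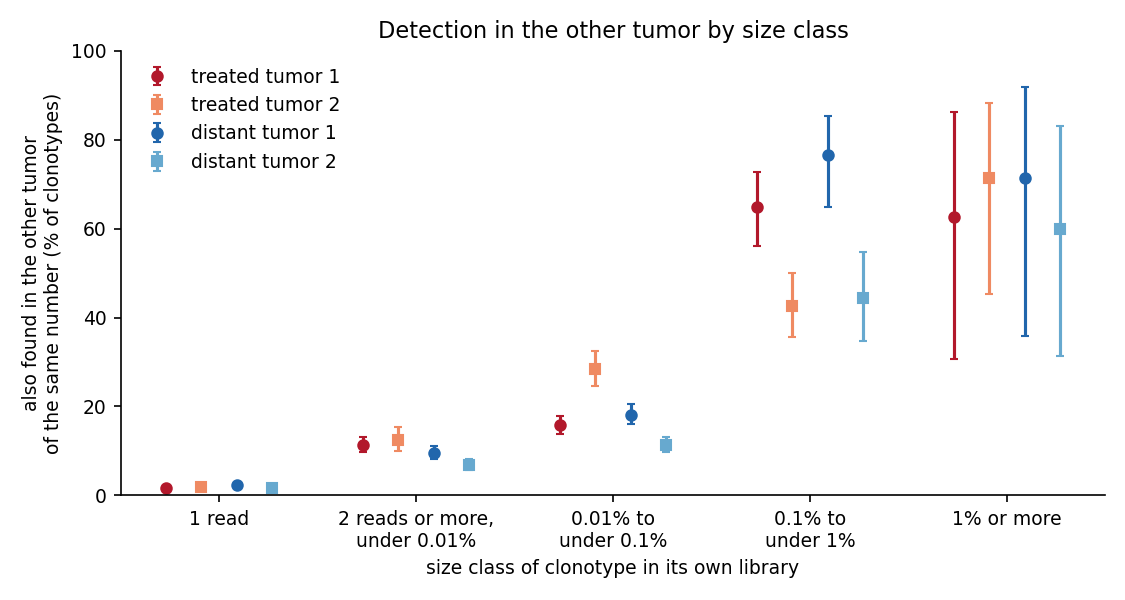
Percent of the clonotypes of each size class that were also found in the other tumor of the same number, for each tumor, with Wilson 95% intervals that cover counting error only. Detection lies at 1.65% to 2.27% for clonotypes of 1 read (0.469% to 0.832% with 1-residue variants left out, not drawn), and for mid-size clones at 64.8% and 76.6% in number 1 and 42.6% and 44.4% in number 2.

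The V-J pairs, of which 229 to 249 were detected per tumor, showed how evenly the genes were used. By reads, the effective number of pairs (the number of equally used pairs with the same Shannon entropy) was 131 and 107 in the treated tumors, and 62.1 and 110 in the distant tumors. The 10 leading pairs held 24.9% and 31.2% of the treated tumors' reads and 49.1% and 32.9% of the distant tumors' reads. With each clonotype counted a single time the effective numbers were 159 and 132 against 134 and 156, in opposite order in the 2 numbers. Spleens lay at 174 and 182 by reads, above every tumor.

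V-J profiles of treated and distant tumors were compared by the Jensen-Shannon divergence, which is 0 for identical and 1 for disjoint profiles. By reads it was 0.264 between the tumors of number 1 and 0.148 between those of number 2. The treated tumors were 0.208 apart from each other, the distant tumors 0.275, and the 2 spleens 0.00902. Both treated-to-distant values within a number were thus under that between the distant tumors. Only that of number 1 was above that between the treated tumors. With the 10 most abundant clonotypes left out of each tumor it was 0.108 and 0.118, under the 0.146 between the treated and the 0.129 between the distant tumors. With clonotypes counted a single time it was 0.105 and 0.0957, again under the 0.128 and 0.113 within the groups. The values within the groups are between numbers, so site and animal cannot be told apart here. Treated tumor 2 and distant tumor 1, of different numbers, were 0.302 apart by reads, 0.174 without the 10 most abundant and 0.151 counted a single time. Each of these was above both values within the groups. For treated tumor 1 and distant tumor 2 they were 0.202, 0.121 and 0.0959, under both.

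No V-J pair passed the test between treated and distant tumors. By reads, edgeR's quasi-likelihood test called 0 of 235 pairs (0%) at an adjusted p under 0.05. An unadjusted p under 0.05 was found for 10 pairs (4.26%), and the smallest adjusted p was 0.386. DESeq2 called 2 of the 235 (0.851%), TRBV4/TRBJ1-2 as higher and TRBV12-1/TRBJ1-2 as lower in the treated tumors. Counted a single time, edgeR called 0 of 210 pairs (0%), with 10 (4.76%) at an unadjusted p under 0.05, and DESeq2 called 0. Pairs are named below by their rank or by the size of their difference, and their values are descriptions.

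The count by clonotypes depended on single libraries. Without treated tumor 1 edgeR called 6 pairs and without treated tumor 2 it called 5, while without distant tumor 1 or 2 it called 0. TRBV12-1/TRBJ1-2 was in both lists, as lower. Such a fit leaves 1 treated library, which is then assumed to vary like the distant pair.

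TRBV12-1/TRBJ1-2 was the largest pair of any tumor. It held 0.397% of treated tumor 1, 0.0125% of treated tumor 2, 20.8% of distant tumor 1 and 0.0898% of distant tumor 2, with 0.419% and 0.393% in the spleens. Only distant tumor 1 lay above the spleens, and 88.8% of its reads for this pair were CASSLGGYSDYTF. That clonotype was at 0.228% in treated tumor 1 and was not found in either library of number 2's tumors. The log2 fold change (treated over distant) was -5.67 ± 2.54 (SE, adjusted p = 0.946, edgeR), and without distant tumor 1 it was 1.19. Distant tumor 1 also had 767 clonotypes of the pair against 57 in treated tumor 1, or 483 against 44 with variants merged. TRBV12-1 lies at chr6:41113550-41114067 and TRBJ1-2 at chr6:41534001-41534048, both on the plus strand (GRCm38, GENCODE M21).

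TRBV4/TRBJ1-2, named after its values were seen because DESeq2 called it, had the opposite direction. It held 0.362% of treated tumor 1 (301 reads) and 0.164% of treated tumor 2 (92 reads), against 0.00730% (6 reads) and 0.00709% (3 reads) of the distant tumors. The spleens had 0.107% and 0.0944%, between the groups. The treated tumors were thus on the upper side of the spleen level and the distant tumors well under it, in both numbers. The log2 fold change was 5.15 ± 1.27 by reads (SE, adjusted p = 0.386, edgeR; 0.0108, DESeq2). Leaving out each tumor in turn gave 4.47 to 5.61. Clonotypes numbered 35 and 13 against 4 and 3, or 21 and 7 against 4 and 3 with variants merged. The leading sequence was not shared, being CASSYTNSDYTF with 141 reads in treated tumor 1 and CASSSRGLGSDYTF with 80 in treated tumor 2. These made up 46.8% and 87.0% of the pair, so the read share of treated tumor 2 came mostly from 1 clone. TRBV4 lies at chr6:41059394-41059886 on the plus strand.

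In both numbers TRBV13-2/TRBJ2-2 was higher in the treated tumor, at 2.03% against 0.248% and 0.788% against 0.248%. The spleens held 0.662% and 0.535%. Both treated tumors had the same leading CDR3, of 14 residues, with 1365 and 269 reads, or 1.64% and 0.480% of the library. It was present in the distant tumors at 13 and 7 reads and in the spleens at 2 and 5. Both distant tumors shared another leader, also of 14 residues, with 68 and 17 reads. The log2 fold change of the pair was 2.5 ± 1.10 (SE, adjusted p = 0.946, edgeR), and leaving out each tumor in turn gave 1.67 to 3.03.

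In both numbers TRBV16/TRBJ2-7 was lower in the treated tumor, and 3 of the 4 tumors held over 5% of it. It held 2.35% and 5.03% of the treated tumors, 7.75% and 9.20% of the distant tumors, and 1.45% and 1.47% of the spleens. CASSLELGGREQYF led it in treated tumor 2 (2172 reads), distant tumor 1 (4461 reads) and distant tumor 2 (2494 reads). In treated tumor 1 it had 0 of 83171 reads, which allows a share of up to 0.00361%. The spleens held 6 and 5 reads of it. A sequence that made up 3.87% to 5.89% of tumors of both numbers was thus not detected in 1 treated tumor, whose leader for the pair was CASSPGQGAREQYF, with 1006 reads. The files give amino acids only, so a receptor common to both animals and reads carried between libraries cannot be told apart, here and for the shared leaders of TRBV13-2/TRBJ2-2. The log2 fold change was -1.20 ± 1.55 by reads and -1.0 ± 0.45 counted a single time (SE, adjusted p = 0.967 and 0.90, edgeR).

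A further 3 pairs were higher in both treated tumors than in the distant tumor of their number, and in each a single clone led 1 treated tumor. TRBV15/TRBJ1-1 held 3.70% and 0.457% of the treated and 0.289% and 0.234% of the distant tumors, and a clone of 15 residues made up 82.8% of it in treated tumor 1. TRBV19/TRBJ2-1 held 2.96% and 0.450% against 0.319% and 0.156%, with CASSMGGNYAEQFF as 70.5% of it in treated tumor 1. TRBV5/TRBJ1-6 held 0.438% and 3.33% against 0.128% and 0.480%, with a clone of 16 residues as 78.9% of it in treated tumor 2. Only the tumor with the large clone stood well above the spleens, which held 0.291% to 0.655% of these 3 pairs. TRBV13-3/TRBJ2-1, at 0.684% and 2.26% against 0.334% and 0.714%, had no such clone, its leader in treated tumor 2 holding 18.8% of the pair.

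Among the pairs that were lower in the treated tumors in both numbers, TRBV16/TRBJ1-1 held 0.311% and 0.230% of the treated and 0.659% and 3.26% of the distant tumors. Its leader in distant tumor 2, of 15 residues, made up 62.5% of the pair there. TRBV13-2/TRBJ1-1 held 0.695% and 0.248% against 1.04% and 0.503%, and the spleens, at 1.38% and 1.05%, were as high as distant tumor 1 or higher. TRBV13-1/TRBJ2-4 held 0.127% and 0.590% against 0.183% and 2.35%, and without distant tumor 2 its log2 fold change was 0.97 instead of -1.82.

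The remaining leading pairs had no common direction. TRBV5/TRBJ2-3, among the 3 largest pairs of both tumors of number 2, held 1.56% and 6.30% of the treated and 3.32% and 4.55% of the distant tumors, with a different leading sequence in each. All 4 tumors lay above the spleens, at 0.797% and 0.859%. TRBV29/TRBJ2-1 was at 7.09% in distant tumor 1 and at 0.220% to 0.471% in the other tumors, and a clone of 15 residues was 84.9% of it. TRBV5/TRBJ2-2 was at 3.28% in distant tumor 2 and 0.0950% to 0.469% elsewhere. TRBV13-2/TRBJ2-5 was at 3.23% in treated tumor 1 and 1.04% to 1.26% in the other tumors. For the last 3, the direction turned when that 1 tumor was left out, with log2 fold changes of 0.53 instead of -3.41, 2.16 instead of -1.98 and -0.19 instead of 0.84.

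**Figure D4:**
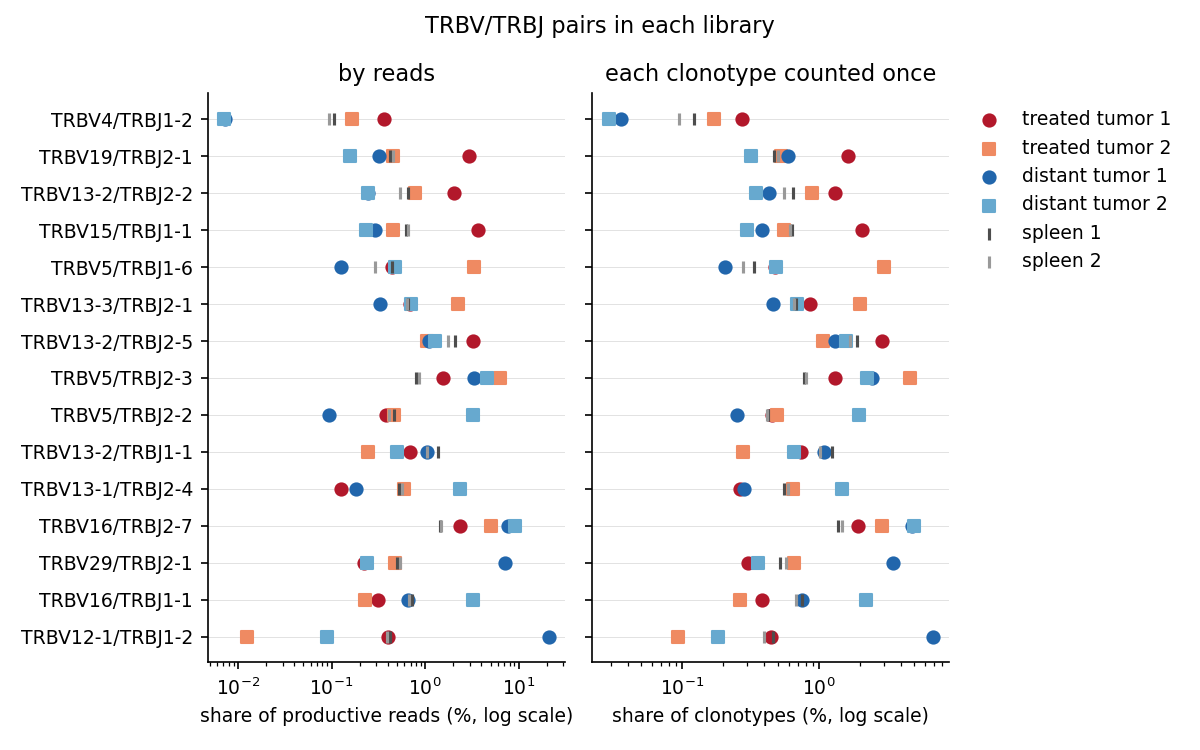
Share of productive reads (left, %, log scale) and of clonotypes (right, %, log scale) of 15 TRBV/TRBJ pairs in each tumor and spleen, ordered by the ratio of treated to distant tumors by reads. TRBV4/TRBJ1-2, TRBV13-2/TRBJ2-2 and TRBV15/TRBJ1-1 are among the pairs that lie higher in both treated tumors on both sides. The 20.8% of TRBV12-1/TRBJ1-2 is found in distant tumor 1 alone.

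Over all 260 pairs seen in a tumor, the 2 groups did not overlap by reads for 77 (29.6%), with 48 (18.5%) higher and 29 (11.2%) lower in the treated tumors. Counted a single time, 75 pairs (28.8%) did not overlap, with 36 (13.8%) higher and 39 (15%) lower. Random labels on 2 libraries a group would set a fraction of about 0.333 apart, and neither share was above it. Of the 59 pairs with a mean share of 0.5% or more, 29 were higher in the treated tumors in both numbers by reads, 10 were lower in both and 20 differed in direction. The median log2 ratio over these pairs was 0.68 in number 1 and 0.25 in number 2. Relative to it 15 pairs were higher in both and 15 lower in both, but centring on the median makes such counts nearly equal by itself. Whether the excess of higher pairs came with the scaling was not tested. With TMM normalization in place of library totals the median log2 fold change over all tested pairs moved by 0.36, from 0.22 to -0.14. Each pair described here as higher or lower in both numbers kept its direction with TMM.

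Residues of the CDR3 middle, with the first 4 and last 4 residues left out, were compared next. No residue was assigned to a V, diversity or J segment, so residues from the V or J gene can remain in the middle. By reads, 6 of the 20 amino acids (30%) had groups that did not overlap. Alanine, cysteine, aspartate and phenylalanine were higher and leucine and arginine lower in the treated tumors. With each clonotype counted a single time there were 5 (25%), with cysteine and lysine higher and leucine, arginine and tryptophan lower. Cysteine, leucine and arginine were apart in the same direction under both weightings. Without the 10 most abundant clonotypes only cysteine and leucine of the 6 by reads remained apart, with proline and tryptophan added, and alanine and phenylalanine turned sign in number 1. Arginine depended on the computation, being lower in both treated tumors in 4 of 7 by reads, and counted a single time lower in 2, higher in 1 and overlapping in 4. Each such residue has an exact permutation p of 0.333 (two-sided), the smallest possible here. Random labels would set about that fraction of residues apart, and the 30% and 25% found were not above it. The residues below are therefore described by their values only.

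Leucine, a bulky aliphatic residue, had the widest difference. By reads it made up 4.90% and 6.77% of middle residues in the treated tumors and 11.7% and 7.33% in the distant tumors, beside 5.46% and 5.70% in the spleens. A few clones held much of the leucine. In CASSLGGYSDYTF and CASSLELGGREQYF a leucine is the first residue kept, beside the V end of the loop. How much of the leucine difference went with the V genes used was not tested. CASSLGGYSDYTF gave 27.4% of the leucine of distant tumor 1 and the leading TRBV29/TRBJ2-1 clone 17.8%. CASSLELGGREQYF gave 27.3% of that of distant tumor 2 and 19.4% of that of treated tumor 2. Without the 10 most abundant clonotypes the values were 5.52% and 5.94% against 6.19% and 6.33%, still apart. The difference went from -6.84 to -0.668 points in number 1 and from -0.552 to -0.386 in number 2. Counted a single time they were 4.5% and 4.94% against 6.42% and 5.74%. Across 7 ways of computing the shares, leucine was lower in both treated tumors in 6 by reads and in 7 counted a single time.

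Cysteine, a residue that can form disulfide bonds and is rare inside CDR3, was higher in the treated tumors in all 7 computations by reads. With each clonotype counted a single time it was higher in 6 and lower in the whole CDR3, whose ends include the conserved cysteine. By reads it was 0.131% and 0.132% against 0.0711% and 0.0989%, and the spleens held 0.0929% and 0.109%. Counted a single time it was 0.451% and 0.509% against 0.390% and 0.333%, with 0.128% and 0.149% in the spleens. A single TRBV13-2/TRBJ1-5 clonotype of 132 reads gave 30.3% of the cysteine reads of treated tumor 2. Without it treated tumor 2 was at 0.0921%, under distant tumor 2, so the direction by reads in number 2 rested on that clonotype. With the leading cysteine clonotype of each tumor left out, the shares were 0.120% and 0.0921% against 0.0679% and 0.0937%. Most of the cysteine counted a single time was in clonotypes of 1 read. They held 0.531% and 0.582% in the treated and 0.480% and 0.432% in the distant tumors. In clonotypes of 2 reads or more and under 0.1% it was 0.0793% to 0.168%, and in clonotypes of 0.1% or more it was at most 0.0892%. The cysteine difference was thus also seen within single-read clonotypes. The share of these clonotypes, higher in the treated tumors, moved with the difference as well, and its part was not tested.

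Lysine and arginine carry positive charge. Lysine counted a single time was 1.94% and 1.88% against 1.59% and 1.64%, above the spleens at 0.885% and 0.935%. Counted so, it was higher in both treated tumors in all 7 computations. By reads lysine was 0.902% and 0.869% against 0.567% and 0.948%, and the groups overlapped in all 7. Arginine by reads was 5.55% and 5.34% against 5.56% and 6.15%, so treated and distant tumor of number 1 differed by 0.0108 points only. Basic residues as a group made up 10.2% to 10.4% of the middles of single-read clonotypes in the 4 tumors, 7.28% to 8.11% for clonotypes of 2 reads or more under 0.1%, and 5.54% to 7.30% for larger ones. In the spleens single-read clonotypes were at 8.21% and 8.22% and the larger ones under 0.1% at 6.82% and 6.81%. The tumors thus had a steeper fall of basic residues with clone size than the spleens, though no test of it was made. Variants by 1 residue made up 14.5% to 31.5% of single-read clonotypes in the tumors and 0.421% to 0.487% in the spleens. Of the single-read CDR3, 85.0% to 85.3% ran from cysteine to phenylalanine in the tumors and 95.5% in the spleens. The fall was not computed without such sequences, and their part in it was not tested.

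**Figure D5:**
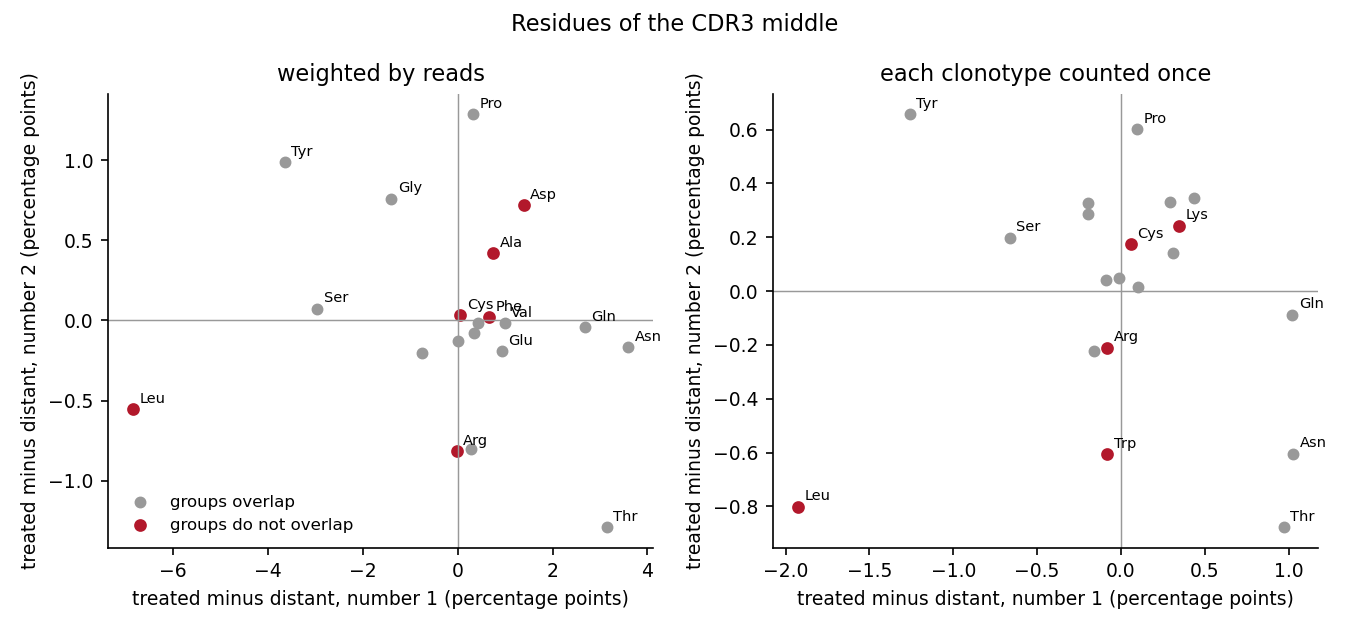
Difference in the share of each residue of the CDR3 middle, treated minus distant tumor in percentage points, in number 1 (horizontal) and number 2 (vertical), by reads on the left and with each clonotype counted once on the right. Red points mark residues whose groups do not overlap, 6 by reads and 5 counted once, and leucine lies at the lower left in both.

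The residue profile of distant tumor 1 stood apart by reads. It differed from treated tumor 1 in 15.6% of residues and from distant tumor 2 in 13.0%, whereas the tumors of number 2 differed in 4.30% and the treated tumors in 7.13%. With the 10 most abundant clonotypes of each tumor left out these became 2.72%, 2.87%, 3.15% and 4.45%. Tyrosine, at 8.15% in distant tumor 1 and 3.51% to 4.51% in the other tumors, came to 39.4% from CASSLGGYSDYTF. Phenylalanine, at 1.32% in treated tumor 1 and 0.644% to 0.749% in the others, came to 39.6% from the leading TRBV15/TRBJ1-1 clone.

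Summed over residues, the middle was less hydrophobic in the treated tumors on the Kyte-Doolittle scale, where higher values are more hydrophobic. By reads the mean was -1.18 and -1.08 against -0.699 and -1.07, so the difference of number 2 was 0.0102 in size and that of number 1 came with the leading clones of distant tumor 1. Leaving out each tumor in turn gave a difference of -0.429 to -0.0574 by reads. Counted a single time the mean was -1.23 and -1.18 against -1.07 and -1.15. The mean net charge of the middle by reads was -0.456 and -0.509 against -0.331 and -0.426, and counted a single time -0.387 and -0.415 against -0.356 and -0.382. In each case the groups did not overlap (exact permutation test, two-sided, p = 0.333). The charge difference depended on where the middle was set, and was positive with 3 residues left out at each end.

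CDR3 length hardly differed. By reads the mean was 13.9 residues in both treated tumors and 13.8 and 13.9 in the distant tumors (exact permutation test, two-sided, p = 1). Counted a single time it was 13.94 and 13.99 against 13.91 and 13.91 (p = 0.333, exact permutation test). CDR3 of 13 residues, the length of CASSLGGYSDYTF, held 34.4% of the reads of distant tumor 1 and 15.7% to 17.7% in the other tumors.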

How the data were processed

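The TCR-β libraries were made, per the labels' protocols, by adaptor ligation and successive PCRs and read on a MiSeq (paired reads of 300 bp). The read counts and the percent of reads per V gene, J gene and CDR3 are as deposited by the authors. No aligner, germline reference or error handling is named (not given in the sources used here), and no molecular identifiers are named, so intervals and floors (95% Wilson, 3 reads) cover counting error only. A read was worth 0.00120% to 0.00236% of a tumor library. Between 4.45% and 5.25% of tumor reads carried a stop or frame mark and were left out. Related V genes can share reads.

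V-J counts were tested with edgeR 4.0.16 (quasi-likelihood, library totals, filterByExpr, Benjamini-Hochberg) on the 4 tumors, with DESeq2 1.42.0 as an alternative. The edgeR test was also run on simulated counts, and the outcome is not given here. Other values were compared by exact permutation over 6 splits (Python 3.11.15 with numpy 2.4.6). Size classes at 42320 reads are hypergeometric expectations. Named pairs are the 3 leading pairs of each tumor, the 5 higher and 5 lower in both numbers with the largest smaller ratio among pairs of 0.5% or more, and those called by edgeR; TRBV4/TRBJ1-2 was added after its values were seen. All 35 gene symbols matched GENCODE M21 (GRCm38), whose build may not be the authors'. Alternatives for size classes, divergence and centred ratios were added after seeing the data. Members, lists and tests were chosen with earlier results of these data known. The series describes 2 mice, and libraries of one number were taken as one mouse. Deviations of V-J shares from group means correlated at r = 0.308 between same-numbered tumors over 155 pairs by reads and 0.233 counted a single time, a check that 2 libraries a group make weak.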

Additional observations from a re-analysis of the deposited data

How the results depend on the processing

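Of 497 alternative values over 51 results, 448 were counted as unchanged, by a rule set for each kind of result. For V-J pairs that meant the same direction and side of the threshold, which none passed in the main fit. For counts and size classes it meant a shift within a set limit, whatever the sign. Some differences counted as unchanged therefore changed sign. For clonotypes from 0.01% to under 0.1%, leaving out each tumor in turn gave -7.71 to 7.05 points. With the replicate block, which pairs tumors by number, edgeR called 0 pairs by reads (smallest adjusted p = 0.0886) and 0 counted a single time (smallest 0.707), so the block changed no call. DESeq2 called 2 pairs by reads. In the whole CDR3, 2 residues were apart by reads. TRBV5/TRBJ2-3 by reads had a log2 fold change of 0.14 without the 10 most abundant clonotypes. The net charge difference was 0.0434 by reads and 0.0334 counted a single time with 3 residues left out at each end, and 0.0415 and 0.0346 over the whole CDR3. Reads in clonotypes of 0.2% or more differed by -0.488 points. Without the 10 most abundant clonotypes the divergence was 0.108 and 0.118 by reads in numbers 1 and 2, and 0.105 and 0.0954 counted a single time; with variants merged, the latter were 0.0843 and 0.0863. The cause was not tested.

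Leaving out each tumor in turn gave 0 to 6 pairs called counted a single time, 10 to 17 residues apart by reads and 9 to 14 counted a single time, where fewer libraries make overlap less likely. The length difference by reads ranged from -0.0196 to 0.128 residues, reads in clonotypes of 0.1% or more from -1.97 to 16.9 points, and the mid-size class from 12.3 to 19.0 points. The log2 fold change ranged from -9.69 to 1.19 by reads and -5.22 to 0.58 counted a single time for TRBV12-1/TRBJ1-2, from -3.31 to 0.97 and -1.72 to 0.67 for TRBV13-1/TRBJ2-4, and from -0.19 to 1.44 and -0.42 to 1.02 for TRBV13-2/TRBJ2-5. It ranged from -4.36 to 0.53 and -2.86 to 0.43 for TRBV29/TRBJ2-1, from -2.94 to 2.16 and -2.06 to 0.91 for TRBV5/TRBJ2-2, and from -1.33 to 0.68 and -0.85 to 0.99 for TRBV5/TRBJ2-3. Depth limits the detection of clonotypes under 0.00361% to 0.00709% of a tumor library.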

Other observations

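Clones of the distant tumors were found in the spleen of the same number more often than clones of the treated tumors, in 4 of the 5 size classes of number 1 and in all 5 of number 2. Both tumors of a number are read against the same spleen library. Of mid-size clones, 45.6% and 47.2% of those of the treated tumors and 59.4% and 71.1% of those of the distant tumors were detected there. For clonotypes from 0.01% to under 0.1% the shares were 23.3% and 37.3% against 32.2% and 43.3%. For clonotypes of 2 reads or more and under 0.01% they were 10.1% and 8.91% against 17% and 29.3%. The exception was clones of 1% or more in number 1, with 5 of 8 in the treated and 3 of 7 in the distant tumor.

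Variants by 1 residue move with this contrast in the smallest of these classes, as they made up 41.3% and 75.8% of it in the treated and 27.1% and 17% in the distant tumors. With such variants left out, a choice made after seeing the data, detection was 14.5% and 16.7% against 21.4% and 32.9%. For clonotypes from 0.01% to under 0.1% it was then 23.3% and 39.5% against 33.8% and 44.3%. In the spleen of the other number, 36 of 125 and 21 of 176 mid-size clones of the treated tumors were detected, and 16 of 64 and 18 of 90 of the distant tumors. There the share was higher for the treated tumor in number 1 and for the distant tumor in number 2. The difference between the tumors was not tested over animals, of which there are 2.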
